A study of Homo sapiens with 6 samples.

Results

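AXIN2 and 9 other feedback genes of canonical Wnt signalling were followed in SCC-9 cells, an established line from a human squamous carcinoma of the tongue, after knockdown of MKI67. The 10 members (AXIN2, NKD1, RNF43, ZNRF3, NOTUM, DKK1, LEF1, TCF7, SP5 and LGR5) were chosen by symbol as genes that beta-catenin is known to induce and that act back on the pathway, and AXIN2 was chosen for its rise in these same libraries. Of the 25349 genes with a row in the count table, 9 were members. LGR5 was not analysed here. Enough reads for a test were found for 14661 genes and 6 of the members, namely AXIN2, NKD1, RNF43, ZNRF3, LEF1 and TCF7.

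The study asked which transcripts depend on the form of Ki67 that includes exon 7. Group siE7 (3 libraries) received siRNA against exon 7 of MKI67 and group siNC (3 libraries) a nonspecific siRNA. Both were given at 10 nM by lipofection on days 0 and 2, and RNA was collected on day 4. The paper lists 3 siRNAs against exon 7 and does not state which of them these libraries received. Effects of the siRNA sequence on other genes were not tested. All libraries came from the same line, for which the paper describes a medium with hydrocortisone, and no other treatment is given. The labels do not say whether the libraries were separate cultures. The p-values below therefore measure the spread between these libraries, which may be technical. A level in such a culture is an average over its cells, so fewer cells that express a gene and less RNA per cell cannot be told apart.

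In canonical Wnt signalling, a Wnt ligand on a Frizzled and LRP5 or LRP6 receptor stops the complex of AXIN, APC and GSK3 from marking beta-catenin for destruction. Beta-catenin then reaches the nucleus and activates genes together with factors of the TCF/LEF family. Many of these genes are brakes on the same pathway: AXIN2 is a scaffold of the destruction complex, RNF43 and ZNRF3 remove Frizzled from the cell surface, NKD1 binds Dishevelled, and NOTUM and DKK1 act outside the cell on the ligand and on LRP receptors.

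The libraries held 25608192 to 29550264 counts. Levels are given as CPM, the counts of a gene relative to all counts of its library, after TMM factors had corrected for the composition of each library. MKI67, the target, was at 1059 ± 26.7 CPM in siNC and 115 ± 8.70 CPM in siE7 (mean ± SD, n = 3 each), a log2 fold change of -3.21 (SE 0.114, edgeR adjusted p = 6.7e-08). All 9 markers of squamous epithelium were above 1 CPM in every library, with summed levels of 23619 to 25125 CPM in siNC and 21689 to 28181 CPM in siE7. Of the markers of other cell types, COL1A1 alone reached 1 CPM in every library, and the 6 fibroblast markers summed to 16.4 to 19.5 CPM in siNC and 18.2 to 24.1 CPM in siE7. The defining leukocyte and endothelial genes summed to less than 1 CPM in each library, 0.400 to 0.757 CPM in siNC and 0.101 to 0.294 CPM in siE7 for leukocytes (3 of 5 markers with a row), and 0.284 to 0.492 CPM and 0.0725 to 0.304 CPM for endothelium. The siE7 replicate 1 library stood apart from replicates 2 and 3 of its group. Its counts differed from theirs by a chi-square of 61.1 and 72.7 per degree of freedom, against 5.54 to 6.22 for the other pairs within a group, so the members are also given without it.

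AXIN2 was low in siNC and far higher in every siE7 library. Its counts were 23, 23 and 33 in siNC and 431, 402 and 406 in siE7, or 0.932, 0.921 and 1.25 CPM against 14.5, 14.6 and 13.3 CPM. Every siE7 library lay above every siNC library, and siE7 replicate 1 was close to the other siE7 libraries. The means were 1.03 ± 0.187 and 14.1 ± 0.735 CPM (SD, n = 3 each), a 13.7-fold difference. The fitted log2 fold change was 3.76 (SE 0.205), with 10 of the 14661 genes tested above it. These values chose the gene, so they are a description and carry no test. The ordering by mean CPM, with the most abundant gene first, placed AXIN2 at 12487 in siNC and 6987 in siE7. The AXIN2 gene lies on the minus strand at chr17:65528563-65561648 (GRCh38). An unnamed gene, ENSG00000266076, shares 1316 exon bases with it on the same strand and had at most 3 counts in any library.

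None of the other feedback genes with a test rose beside AXIN2. All 5 had a log2 fold change below 0, although LEF1 was above 0 without composition scaling, without siNC replicate 3 and without siE7 replicate 2. Their median was -0.49 against 0.08 over all genes tested. Among these 5, ZNRF3 and TCF7 fell at an adjusted p under 0.05 and none rose. Of all genes tested, 16% were lower and 18% higher at that threshold. No member besides AXIN2 was a differentially expressed gene (DEG), which also requires a log2 fold change beyond 1, and 7.38% of all genes were DEGs higher in siE7 and 4.84% DEGs lower in siE7. In 4 of the 5 (ZNRF3, TCF7, NKD1 and RNF43), every siE7 library lay below every siNC library, a pattern of 22.7% of all genes tested. The highest of the siE7 libraries was replicate 1 in 4 of the 5, the exception being RNF43.

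**Figure D1:**
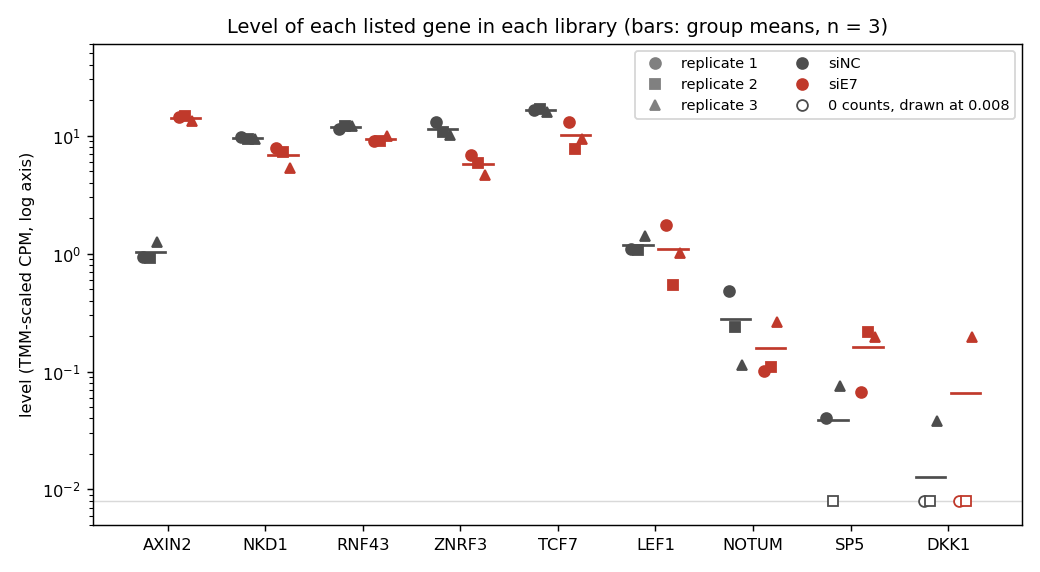
Level of each member in each library, in CPM on a log axis, for siNC and siE7 (points are libraries, bars are group means, n = 3 each, and a count of 0 is drawn at 0.008 CPM). The siE7 libraries of AXIN2 sit between 13.3 and 14.6 CPM, above the siNC libraries at 0.921 to 1.25 CPM, while those of ZNRF3, TCF7, NKD1 and RNF43 sit below siNC.

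ZNRF3 and RNF43 are membrane E3 ubiquitin ligases that take Frizzled receptors off the cell surface. ZNRF3 (chr22:28883572-29057488, plus strand) was at 13, 10.7 and 10.2 CPM in siNC and 6.85, 5.83 and 4.68 CPM in siE7. The siE7 libraries were all lower, without overlap. ZNRF3 fell by 0.97 on the log2 scale (SE 0.192, edgeR adjusted p = 0.0029), just short of the fold change of a DEG. Without siE7 replicate 1 the log2 fold change was -1.17, and it passed the DEG limit in 5 of 13 alternative settings. RNF43 (chr17:58353676-58417595, minus strand) was at 11.3, 12 and 12.2 CPM in siNC and 9.08, 8.95 and 9.85 CPM in siE7. These ranges did not overlap either, but the log2 fold change of -0.35 (SE 0.150) did not pass the test (adjusted p = 0.095). Without siE7 replicate 1 it was -0.39 (adjusted p = 0.0085), and without composition scaling it was -0.18 (adjusted p = 0.36). RNF43 shares 4326 exon bases on the same strand with ENSG00000285897, so reads can be split between them. With both genes summed, the log2 fold change was -0.30 (SE 0.136, adjusted p = 0.11).

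NKD1, which binds Dishevelled and dampens the signal in the cytoplasm, had 9.8, 9.45 and 9.39 CPM in siNC and 7.86, 7.21 and 5.36 CPM in siE7. The siE7 libraries were lower and spread more widely (6.81 ± 1.30 against 9.55 ± 0.223 CPM, SD, n = 3). Its log2 fold change of -0.49 (SE 0.183) had an adjusted p of 0.059. Without siE7 replicate 1 it was -0.67 (adjusted p = 2.5e-04), and without composition scaling -0.33 (adjusted p = 0.16). The gene spans chr16:50548396-50649249 on the plus strand.

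TCF7 and LEF1 encode factors of the TCF/LEF family, the DNA-binding partners of beta-catenin, and are themselves induced by it. TCF7 (chr5:134114681-134151865, plus strand) was at 16.4, 16.9 and 16 CPM in siNC and 13.2, 7.75 and 9.45 CPM in siE7. The siNC libraries were nearly alike, whereas siE7 replicate 1 was well above the other siE7 libraries. TCF7 fell by 0.70 on the log2 scale (SE 0.192, adjusted p = 0.016). This call of edgeR was lost without siNC replicate 1 (adjusted p = 0.056), siNC replicate 2 (0.064), siNC replicate 3 (0.053) or siE7 replicate 2 (0.064), and without siE7 replicate 1 the log2 fold change was -0.99 (adjusted p = 9.2e-09 by edgeR). The exons of TCF7 share 210 bases with SKP1 on the opposite strand, which was more abundant and had a log2 fold change of 0.14 (adjusted p = 0.36). LEF1 (chr4:108047545-108168956, minus strand) was at 1.09, 1.08 and 1.4 CPM in siNC and 1.75, 0.543 and 1.01 CPM in siE7. Its groups overlapped, with siE7 replicate 1 the highest library of all and siE7 replicate 2 the lowest. The log2 fold change of -0.11 (SE 0.409, adjusted p = 0.86) was smaller than its error, and leaving out single libraries moved it from -0.66 (without siE7 replicate 1) to 0.21 (without siE7 replicate 2).

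**Figure D2:**
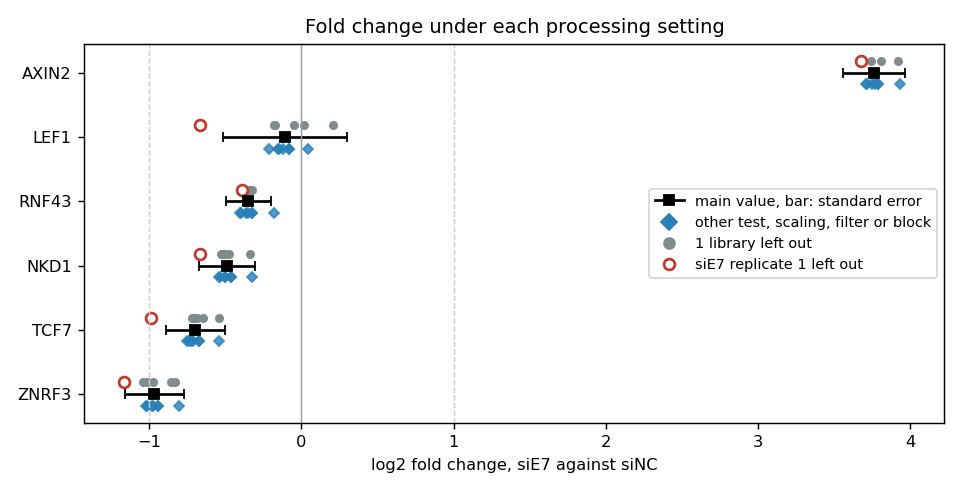
Log2 fold change of siE7 against siNC for each tested member under the main settings and the 13 alternatives (horizontal axis, log2 scale). AXIN2 stays between 3.68 and 3.93, ZNRF3 between -1.17 and -0.81, and LEF1 lies on both sides of 0.

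The remaining members were close to or below the limit of detection and had no test. NOTUM, a secreted enzyme that inactivates Wnt ligands, had 12, 6 and 3 counts in siNC and 3, 3 and 8 in siE7. These ranges overlapped, and the ratio of the summed counts per library size was 0.577 (exact 95% interval 0.272 to 1.19). SP5, a transcription factor induced by beta-catenin, had 1, 0 and 2 counts in siNC and 2, 6 and 6 in siE7. The sums of 3 and 14 counts gave a ratio of 4.04 (1.13 to 21.9). DKK1, a secreted inhibitor that binds LRP receptors, had 0, 0 and 1 counts in siNC and 0, 0 and 6 in siE7, so that all of its siE7 counts came from 1 library (ratio 5.20, 0.630 to 239). These intervals cover counting error only and not the spread between libraries. When all genes were fitted without a filter on low counts, the adjusted p was 0.54 for NOTUM, 0.33 for SP5 and 0.45 for DKK1.

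The promoters of LEF1, RNF43, TCF7, SP5 and DKK1 were found in the RefSeq table (GRCh38.p14), in 7 windows of 300 bases (250 before and 50 after a RefSeq start). For SP5 and DKK1 this start was that of the gene in GENCODE. For LEF1, RNF43 and TCF7 the windows lay at starts inside the gene. Those of LEF1 and TCF7 do not cover the gene starts given above. The RNF43 window at chr17:58417485-58417784 does cover the start of its gene, and the other RNF43 window does not. Both strands were searched for the letters CTTTG followed by AA, AT, TA or TT, forms of the sequence that TCF/LEF factors bind. The matches did not overlap each other in the windows shown. At least 1 motif was present in 3 of the 7 windows and in 13.8% of all 35116 promoters in the table. AXIN2, NKD1, ZNRF3 and NOTUM had no window there, so their promoters were not searched. The 3 windows are shown because they are those in which these letters occur, with the motifs, read on either strand, in capitals (where the capitals read TTCAAAG, the motif on the opposite strand is CTTTGAA, and where they read AACAAAG it is CTTTGTT). They lie at chr2:170715087-170715386 for SP5, chr10:52314031-52314330 for DKK1 and chr5:134123368-134123667 for the downstream start of TCF7, each on the plus strand and written 5′ to 3′.
SP5: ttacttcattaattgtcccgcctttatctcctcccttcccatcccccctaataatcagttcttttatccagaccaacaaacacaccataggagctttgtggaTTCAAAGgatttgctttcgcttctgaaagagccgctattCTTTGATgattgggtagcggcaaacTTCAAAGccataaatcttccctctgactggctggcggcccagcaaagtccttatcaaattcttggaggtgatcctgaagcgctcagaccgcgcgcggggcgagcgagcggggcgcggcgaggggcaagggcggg
DKK1: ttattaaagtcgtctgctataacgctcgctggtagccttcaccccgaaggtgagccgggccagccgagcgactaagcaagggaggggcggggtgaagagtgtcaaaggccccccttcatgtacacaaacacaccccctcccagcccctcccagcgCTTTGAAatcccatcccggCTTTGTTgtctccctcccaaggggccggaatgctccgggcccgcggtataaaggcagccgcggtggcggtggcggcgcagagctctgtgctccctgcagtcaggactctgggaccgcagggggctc
TCF7: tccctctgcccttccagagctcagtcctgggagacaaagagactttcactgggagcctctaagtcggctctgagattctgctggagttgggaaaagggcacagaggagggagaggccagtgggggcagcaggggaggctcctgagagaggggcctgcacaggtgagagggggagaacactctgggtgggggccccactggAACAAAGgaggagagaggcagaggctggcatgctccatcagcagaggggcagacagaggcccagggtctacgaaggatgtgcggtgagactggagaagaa
SP5 held 3 motifs, DKK1 held 2 and this window of TCF7 held 1. The windows of LEF1 and RNF43 and the upstream window of TCF7 held none of these letters.

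The members were then ordered by level within each group, as CPM per kilobase of the canonical transcript. In siNC, TCF7 was the highest at 4.99 (range 4.87 to 5.14), followed by RNF43 at 2.61 (2.50 to 2.70) and ZNRF3 at 1.65 (1.48 to 1.89), and these 3 did not overlap. NKD1 followed at 0.560 and LEF1 at 0.333 CPM per kilobase. AXIN2 came next at 0.243 (0.216 to 0.293), and its range overlapped that of NOTUM (0.0513 to 0.219). SP5 and DKK1 were lowest, at 0.0189 and 0.00699. In siE7, AXIN2 stood at 3.32 (3.12 to 3.43) with TCF7 at 3.08 (2.36 to 4.01), and their ranges overlapped. RNF43 was at 2.05, ZNRF3 at 0.842, NKD1 at 0.400 and LEF1 at 0.309 CPM per kilobase, the last pair with overlapping ranges. SP5 (0.0783), NOTUM (0.0707) and DKK1 (0.0362) were again the lowest. RNF43 was ordered by its own counts, which summed to 900 in siNC and 817 in siE7. With ENSG00000285897, which shares its exons, the sums were 1991 and 1863, so the place of RNF43 could be higher. The level of TCF7 depends on the length used: per kilobase of all its exons together it was 1.63 in siNC, below RNF43 at 1.87, and in siE7 it was 1.00, below RNF43 at 1.47 and AXIN2 at 2.72.

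**Figure D3:**
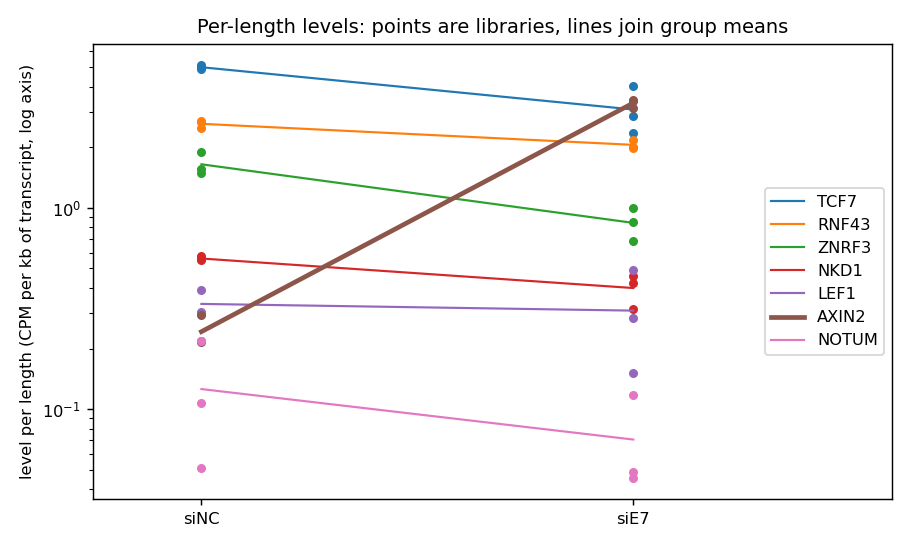
Levels of 7 members in siNC and siE7, in CPM per kilobase of the canonical transcript on a log axis (points are libraries, n = 3 each, and lines join the group means). AXIN2 moves from 0.243 in siNC to 3.32 in siE7, beside TCF7 at 3.08, while the order of RNF43, ZNRF3 and NKD1 is the same in both groups. RNF43 is drawn from its own counts, without those of ENSG00000285897.

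Among 118 other genes of the pathway, 80 had a test, of which 30 fell and 9 rose at an adjusted p under 0.05 (median log2 fold change -0.24). These were 37.5% and 11.25% of the 80, beside 16% lower and 18% higher among all genes tested. DEGs numbered 14 lower and 6 higher in siE7, or 17.5% and 7.5% of the 80, beside 4.84% and 7.38% of all genes tested. The 7.5% higher was near the share among all genes. It includes PYGO1, which passed the filter on low counts only through siE7. Without siNC replicate 3 the DEGs numbered 15 lower and 3 higher. Of 11 receptor genes tested by edgeR, none was a DEG, 4 fell (36.4%) and none rose. LGR4, a receptor of R-spondins, which act by clearing RNF43 and ZNRF3, fell by 0.96 (adjusted p = 0.0038, edgeR). LGR4 passed the fold change of a DEG in 4 alternatives, at -1.02 with DESeq2, -1.01 with RLE factors, -1.0045 without siE7 replicate 2 and -1.11 without siE7 replicate 3. LRP5 fell by 0.55 (adjusted p = 0.011, edgeR, and 0.053 without siNC replicate 1), and LRP6 was at -0.11 (adjusted p = 0.68, edgeR). Of 18 genes of the cytoplasmic relay, none was a DEG, 3 rose (16.7%) and 4 fell (22.2%), near the shares of all genes. CTNNB1, which encodes beta-catenin itself, was at 244 ± 5.65 CPM in siNC and 186 ± 1.74 CPM in siE7 (log2 fold change -0.39, adjusted p = 0.012). That call was lost without composition scaling (-0.22, adjusted p = 0.058), without siNC replicate 1 (0.063) and without siNC replicate 3 (0.067). APC fell by 0.75 (adjusted p = 0.044, edgeR), a call lost in 5 of 13 alternatives. Its adjusted p rose to 0.21 without siNC replicate 1, 0.095 without siNC replicate 3 and 0.067 without siE7 replicate 3. With at least 10 counts in every library it was 0.052. AXIN1, the constitutive relative of AXIN2, had a log2 fold change of 0.29 (adjusted p = 0.078), and GSK3B was at -0.21 (adjusted p = 0.20). Without siE7 replicate 1, AXIN1 was at 0.13 (adjusted p = 0.056, edgeR) and GSK3B at -0.21 (adjusted p = 0.015, edgeR), and without composition scaling AXIN1 was at 0.45 and GSK3B at -0.04.

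The 13 nuclear factors tested held 3 DEGs, 15.4% lower and 7.69% higher in siE7. Of all genes tested, 4.84% were DEGs lower in siE7 and 7.38% DEGs higher in siE7. TCF7L2, another TCF/LEF factor, fell from 10.5 ± 0.626 to 5.17 ± 0.158 CPM (log2 fold change -1.01, adjusted p = 7.5e-04) and CTNNBIP1, an inhibitor that binds beta-catenin, fell by 2.14. TCF7L2 was short of the fold change of a DEG in 4 alternatives, at -0.85 without composition scaling and -0.98 without siNC replicate 1. TCF7L1 was at 0.36 (adjusted p = 0.083). PYGO1, a cofactor of beta-catenin named after its values were seen, was the DEG higher in siE7, at 1.52. It had few counts, 17 in siNC (8, 4 and 5) and 57 in siE7 (17, 20 and 20), or 0.225 and 0.651 CPM. PYGO1 passed the filter on low counts only through siE7, so its value is a description. Of the 8 tested genes listed as other inhibitors, 3 (37.5%) were DEGs lower in siE7 and 1 (12.5%) was a DEG higher in siE7. Whether DKK3 or the rest inhibit the pathway in these cells was not tested. DKK3 fell by 2.21 and SFRP1, a secreted protein that binds Wnt ligands, fell by 1.43, while TRABD2B, a protease of Wnt ligands, rose by 2.17. TRABD2A, the remaining DEG lower in siE7 and named after its values were seen, fell by 1.13 (adjusted p = 0.0014, edgeR). Of the 12 ligands tested, 4 (33.3%) were DEGs lower in siE7, all of them named by the rule: WNT7A (-2.89), WNT4 (-1.62), WNT7B (-1.47) and WNT5B (-1.11). WNT11 (1.29, from 0.953 to 2.32 CPM) and WNT2B (1.12, from 0.527 to 1.15 CPM), named after their values were seen, rose. WNT2B was just past the threshold, at an adjusted p of 0.048 (edgeR). These 2 DEGs were 16.7% of the 12 ligands.

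Of 16 other reported targets of beta-catenin with a test, 5 were DEGs lower in siE7 and 2 DEGs higher in siE7. These were 31.25% and 12.5% of the 16, beside 4.84% and 7.38% of all genes tested. CCND1, which encodes cyclin D1, fell from 467 to 168 CPM (log2 fold change -1.48), and EPHB2 (-1.59), BIRC5 (-1.47), SOX9 (-1.42) and CD44 (-1.15) also fell. Without composition scaling, CD44 (-0.98) and WNT5B (-0.95) were not DEGs. ID2, an inhibitor of basic helix-loop-helix factors, rose from 0.774 to 4.89 CPM (log2 fold change 2.65, adjusted p = 3.2e-05). MMP7, named after its values were seen, rose by 1.65. CCND1 and BIRC5 vary with the cell cycle, and MKI67, a gene of cycling cells, was lower in siE7 as the target. The part of the cell cycle in these falls was not tested.

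**Figure D4:**
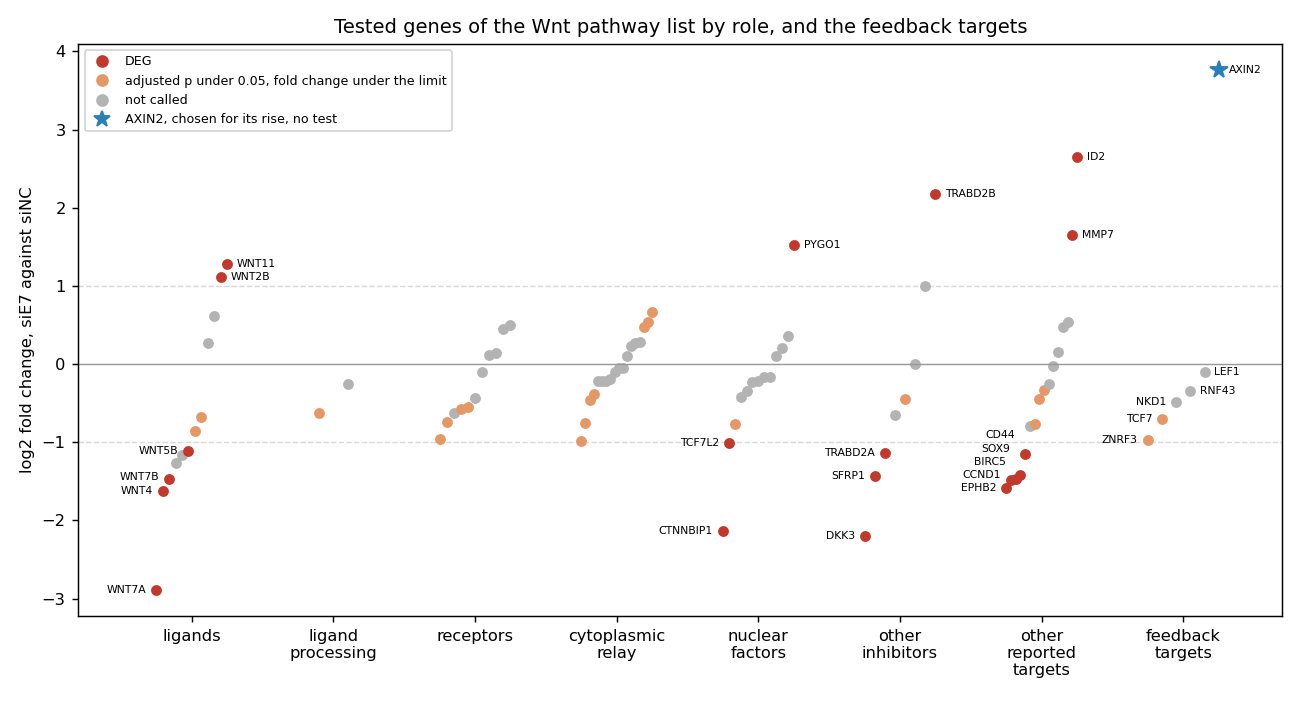
Log2 fold change of siE7 against siNC for the 80 tested genes of the Wnt pathway list by role and for the tested members at the right (each point is a gene, dashed lines mark the fold change of a DEG). AXIN2 stands at 3.76, above every other gene drawn, ID2 is next at 2.65, and the 5 other tested members lie between -0.97 and -0.11, LEF1 being above 0 in 3 of the 13 alternatives.

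The genes whose levels over the 6 libraries were most like those of AXIN2 were found by the root mean square difference of log2 CPM, each gene centred on its siNC mean. AKR1C2, an aldo-keto reductase of steroid metabolism, was nearest with a difference of 0.216 and went from 6.78 to 73.5 CPM. Next were LINC02361 (0.340, from 0.155 to 2.12 CPM), FLJ16779 (0.376, from 0.935 to 17.2 CPM) and ATOH8 (0.401), a basic helix-loop-helix factor with 0 counts in every siNC library and 16 to 18 in the siE7 libraries. RSPH1, a protein of motile cilia, was the fifth (0.432), with 0.298 CPM in siNC and 3.24 CPM in siE7. The log2 CPM held a prior count of 2, which sets the distance of genes with few counts, so the rise of ATOH8 from 0 counts is not shown to be of the size of that of AXIN2. LINC02361 (2, 3 and 7 counts in siNC), ATOH8 and RSPH1 (4, 6 and 13) passed the filter on low counts only through siE7. With each gene centred on siNC, nearness mostly reflects a group difference of like size, for which AXIN2 was chosen. The order is a description.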

How the data were processed

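RNA-seq was available for 6 SCC-9 libraries, 3 siE7 and 3 siNC, grouped by title. The authors deposited whole-number read counts per gene without normalization. They described stranded poly(A) libraries and paired-end NovaSeq reads, and the submitters' processing notes name HISAT2, DESeq2 and GRCh38 without a role. The counting tool, its strand setting and the annotation release are not given in the sources used here. The members and lists were chosen with earlier results of these data known.

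Genes were filtered by filterByExpr (14661 of 25349 kept), scaled by TMM factors and compared by the quasi-likelihood F-test of edgeR 4.0.16 (R 4.3.3, limma 3.58.1) with robust dispersions on all genes and Benjamini-Hochberg adjustment. DEGs passed 2 limits, 0.05 for the adjusted p and 1 for the absolute log2 fold change. "Rose" and "fell" mark an adjusted p under 0.05. An exact permutation test of 3 against 3 libraries cannot give p under 0.1, so none was used. Fits were tested on simulated data. Named genes were the 10 members, MKI67, 9 core pathway genes, the 15 pathway DEGs with the smallest p, the 5 genes most like AXIN2 and genes overlapping a member. Positions come from GENCODE v44 (GRCh38), where 25283 of 25349 identifiers matched without version and 20655 with it. Exact intervals for 3 untested members treat counts as Poisson. The alternatives were DESeq2 1.42.0, omission of composition scaling, RLE and upper-quartile factors, no filter, at least 10 counts in every library, a replicate block and each library left out. Summing RNF43 with its overlapping gene was added after seeing the data. Tables and figures used Python 3.11.15, numpy 2.4.6, pandas 2.3.3, scipy 1.17.1 and matplotlib 3.10.9.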

Additional observations from a re-analysis of the deposited data

How the results depend on the processing

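AXIN2 (log2 fold change 3.68 to 3.93), the fall of ZNRF3 (-1.17 to -0.81) and that of MKI67 (-3.27 to -3.04) kept their direction in all 13 alternatives, and the last pair stayed past the adjusted p of 0.05. Besides AXIN2, 0 members were DEGs, against 1 (ZNRF3) with DESeq2 and 1 with RLE factors, and 0 to 1 with 1 library left out. Members besides AXIN2 past the p threshold numbered 2, and 1 to 4 with 1 library left out, the 4 being without siE7 replicate 1. NKD1 passed with DESeq2 (adjusted p = 0.040 by DESeq2), RLE factors (0.044 by edgeR) and without siE7 replicate 1. LEF1 reversed without composition scaling (0.0463) and ranged from -0.66 to 0.21 with 1 library left out. LRP6 reversed without composition scaling (0.0719) and ranged from -0.21 to 0.01 with 1 library left out. Omitting composition scaling moved the median log2 fold change of all genes from 0.08 to 0.25, a shift of 0.17, and the share of DEGs that were higher in siE7 from 60.4% to 76.2%. With it omitted AXIN1 (0.45, edgeR adjusted p = 0.0046) and TCF7L1 (0.53, edgeR adjusted p = 0.015) rose, and APC did not pass (edgeR adjusted p = 0.14). All DEGs numbered 1792 and ranged from 1365 (at least 10 counts in every library) to 2219 (without siE7 replicate 1), and pathway DEGs from 16 to 23 against 20, those higher in siE7 from 3 to 6 against 6. Of the 5 genes nearest to AXIN2, 0 were among the 5 nearest by Pearson correlation. In the order by correlation AKR1C2 was at 8, ATOH8 at 18, FLJ16779 at 88, LINC02361 at 114 and RSPH1 at 240. Promoters with a motif numbered 3 of 7, and 6 of 7 for the core CTTTG alone, which 47.5% of all promoters hold. The labels do not say whether replicate numbers pair the samples. Correlations of deviations were -0.05 to -0.02 for same-numbered libraries and -0.04 to 0.06 for the others. With so few libraries they cannot show whether the samples were paired. With the replicate block there were 1819 DEGs, 21 of them in the pathway list, and 0 members besides AXIN2. SP5, DKK1 and NOTUM were limited by depth, with 1 to 21 counts per group.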
